A study of Mus musculus with 6 samples.

Results

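The genes described here encode the proteins of the mitochondrial ribosome. They were taken as all genes whose symbol starts with Mrpl or Mrps followed by a digit, leaving out symbols with "-ps", of which the tables held 0 that match the pattern. This gave 78 of the 24848 genes listed, 49 named Mrpl for the large subunit and 29 named Mrps for the small subunit. All 78 were expressed highly enough to be tested, among 15848 tested genes. Brains of E14.5 mouse embryos were compared, 3 with the genotype label WT (wild type) and 3 with the label E4f1 KO (knockout). Each brain had its own animal number and its own mRNA library. The labels used here do not say which exons of E4f1 are deleted, which cells carry the deletion, or the strain, litter and sex of the embryos, so p-values measure the spread between these brains. E4f1 codes for a transcription factor with zinc fingers, and the study's question is what its loss does to pyruvate use and to the Elongator complex in the embryonic brain.

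The mitochondrial ribosome makes the few proteins that are encoded by mitochondrial DNA, all of them subunits of the respiratory chain and ATP synthase. Its RNAs come from mitochondrial DNA, while every one of its proteins is encoded in the nucleus, made in the cytosol and imported. The small subunit reads the mRNA, and the large subunit joins the amino acids and passes the growing chain to the inner membrane. Many of the proteins descend from bacterial ribosomal proteins, and others are found in mitochondria alone.

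Levels are given as CPM (counts relative to the library total, TMM-scaled) in the order of brains 1, 2 and 3 of a group, or as TPM where named, which also corrects for transcript length. A fold change is the log2 difference KO minus WT ± its standard error (SE) from edgeR's quasi-likelihood test, and a gene was called changed at a Benjamini-Hochberg adjusted p below 0.05 over all tested genes. E4f1 (chromosome 17, 24443778 to 24455392, GRCm38) had 20.7, 21.6 and 21.5 CPM in WT brains against 7.12, 7.01 and 6.92 CPM in KO brains (-1.60 ± 0.08, edgeR adjusted p = 0.00142), so every library matched its label. The expected counts per library summed to between 42113465 and 74064707, and the 78 genes took between 0.1614% and 0.1845% of them. The lowest count of a member was between 251 and 441 in the WT libraries and between 260 and 345 in the KO libraries. Poisson counting error on the log2 scale had a median over the 78 genes of 0.0359 to 0.0496 per library and was at most 0.0911, and the median SD between brains of a group was 0.07.

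The promoters were searched for letters that transcription factors of housekeeping and mitochondrial genes recognise. Of the 78 genes, 69 had a promoter sequence in the RefSeq table of build GRCm38.p6, covering 250 bases before to 50 bases after the annotated start. Mrpl13, Mrpl15, Mrpl19, Mrpl38, Mrpl4, Mrpl54, Mrps28, Mrps34 and Mrps35 were the 9 without an entry. The letters GCCATNTT, which factor YY1 recognises, were held by 21 of the 69 (30.4%), against 8.8% of 12239 tested genes with a promoter entry. The letters GCGC and TGCGC with any base between them, recognised by NRF1, were held by 13 (18.8%, against 10.1%), and CCGGAAGT, recognised by ETS factors such as GABPA, by 12 (17.4%, against 7.9%). TGACGT, the core of the sites that E4F1 binds and of those of the CREB and ATF factors, was held by 8 (11.6%, against 12.4%). Any of the YY1, NRF1 and ETS letters was held by 40 of the 69. Both strands were searched, and these are matches of letters, with no test. The lines that follow show 30 bases around a match in gene orientation, with the match in capitals, for the TGACGT holders with the lowest and highest fold change of each subunit and for the most abundant holder of each other motif.
Mrps23, TGACGT, plus strand, chr11:88204315-88204344: ccgccgtccggaTGACGTcgaggcgggact
Mrpl16, TGACGT, plus strand, chr19:11770354-11770383: ggtgggacaggaTGACGTcacttcctgtct
Mrps10, TGACGT on the reverse strand, plus strand gene, chr17:47369133-47369162: gagaaccgtaagACGTCAgagcaggaagga
Mrpl2, TGACGT on the reverse strand, plus strand gene, chr17:46646220-46646249: accgggaccggaACGTCAtcccagagcgcc
Mrps21, NRF1 letters, minus strand gene, chr3:95871586-95871615: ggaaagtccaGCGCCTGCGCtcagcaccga
Mrpl52, ETS letters on the reverse strand, plus strand gene, chr14:54426899-54426928: gggccacgcccACTTCCGGttcccttgctc
Mrpl42, YY1 letters on the reverse strand, minus strand gene, chr10:95501904-95501933: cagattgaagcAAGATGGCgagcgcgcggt

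A single gene of the mitochondrial ribosome was called changed by edgeR in KO brains. DESeq2 and limma on log2 TPM also called other large subunit genes, with smaller fold changes, as given below. Mrpl15 (chromosome 1, 4773198 to 4785750), the large subunit protein that descends from bacterial L15, had 30.3, 26.6 and 28.6 CPM in WT brains against 4.83, 4.55 and 6.95 CPM in KO brains. Every KO brain lay far below every WT brain, and KO 3 was the highest of the KO brains. Mrpl15 fell to 0.191 of its WT level, from 28.5 ± 1.85 to 5.45 ± 1.31 CPM (SD, n = 3 per group), with a log2 fold change of -2.39 ± 0.18 (95% interval -2.83 to -1.95, edgeR adjusted p = 0.00384). It was thus the only call among the 49 large subunit genes (2.04%), where 0.492% of all tested genes were called lower, 0.511% higher and 1.0% in either direction. Of the 78 genes called lower in the whole table, 16 fell by as much as Mrpl15 or more, itself included, and its p was the 32nd smallest of all tested genes.

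The remaining Mrpl15 transcripts were still counted in every KO brain. The tables gave it 2256, 1093 and 1903 expected counts in WT and 345, 260 and 355 in KO. All were whole numbers, so these counts show no pairs shared out with another gene. Between 98.91% and 98.97% of all genes had whole counts in a library. Per transcript length, Mrpl15 had 24.5, 21.4 and 22.9 TPM in the WT brains and 3.42, 3.59 and 5.48 TPM in the KO brains. It ranked 43rd of the 49 Mrpl genes in each WT brain and last in each KO brain, where Mrpl17 had been last in the WT brains. The mean transcript length that RSEM gives for Mrpl15, which moves with the mix of its annotated transcripts, was between 3339.25 and 3362.48 bases in WT and at 3762.71, 3375.80 and 3310.96 bases in KO 1 to KO 3. KO 1 stood apart in this measure, and the other KO brains lay close to WT. In whole tissue, fewer cells with the transcript and less transcript per cell cannot be told apart.

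**Figure D1:**
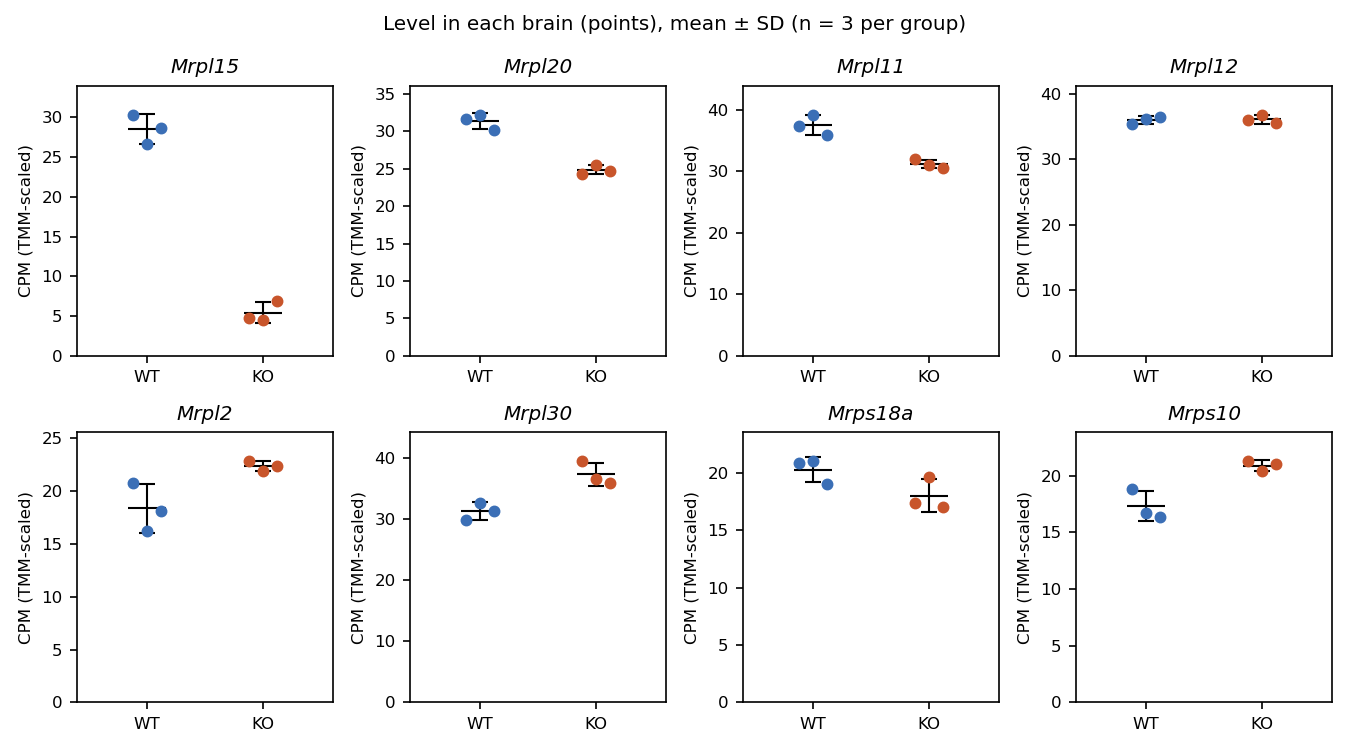
CPM after TMM scaling (vertical axes, from 0) of 8 genes in each brain. Points are brains, horizontal marks the mean and bars the SD of 3 brains per group. Mrpl15 lies between 26.6 and 30.3 in WT and between 4.55 and 6.95 in KO, while in the other 7 panels the KO mean lies between 0.794 and 1.22 times the WT mean.

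The size of the Mrpl15 change held in every alternative fit, and its call in 17 of 19. Its log2 fold change was between -2.61 and -2.28 in the 6 fits that left out 1 library, all of which called it (edgeR adjusted p between 0.00287 and 0.0440). In a fit of brains 1 and 2 of each group, which carry neighbouring animal numbers, it was -2.60 ± 0.15 and edgeR's adjusted p was 0.0638. Adding a covariate for midbrain tissue, averaged from the log2 CPM of En1, En2 and Pax5, gave -2.35 ± 0.33 and an adjusted p of 0.351. Both of these fits called 0 of all tested genes by edgeR, E4f1 included, with 1546 and 750 genes at an unadjusted p below 0.05. This midbrain score was 4.13, 3.16 and -0.17 for the WT brains and -3.04, -1.32 and -1.97 for the KO brains. It was higher in each WT library than in each KO library, and its part in the Mrpl15 difference was not tested beyond that fit. WT 3, whose score was far below those of WT 1 and WT 2, had 28.6 CPM of Mrpl15. With every WT score above every KO score, score and genotype cannot be told apart in these brains.

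**Figure D2:**
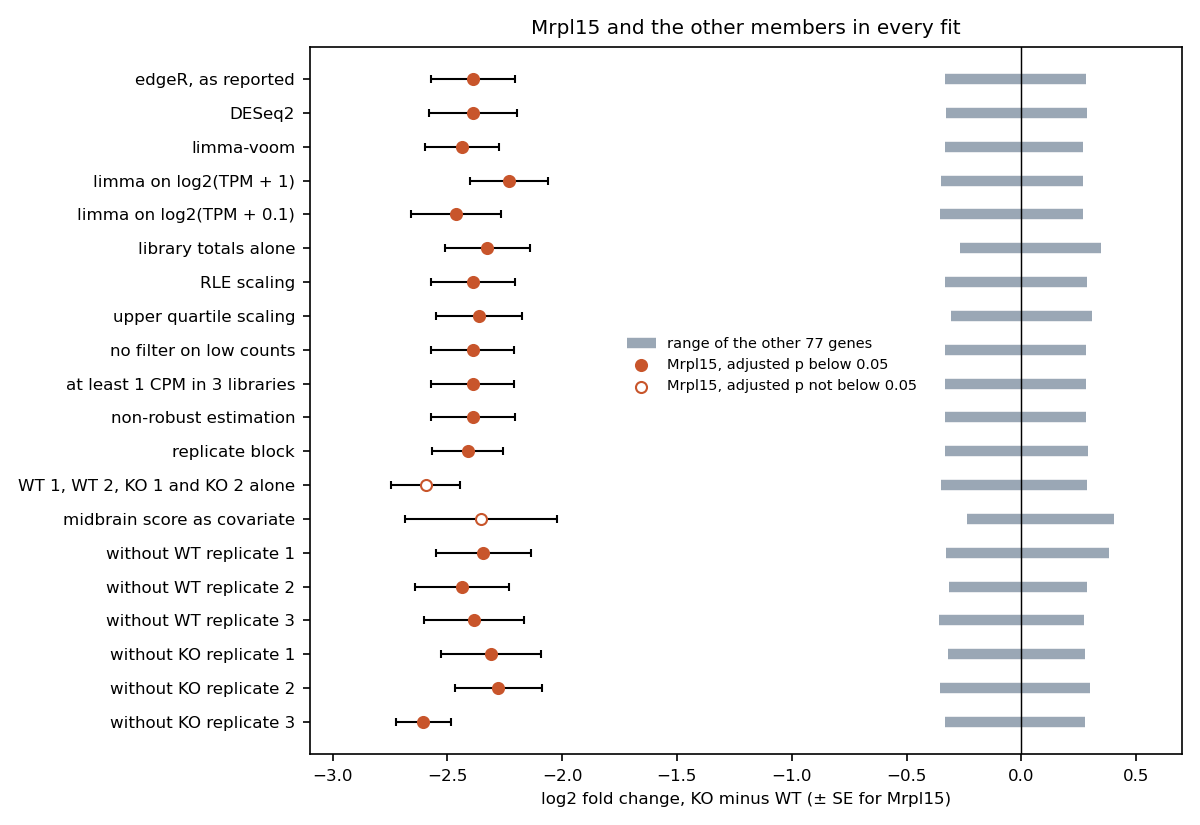
Log2 fold change (KO minus WT, horizontal axis) of Mrpl15 in each fit (rows) with its SE, and the range of the other 77 genes in the same fit (grey bars). Mrpl15 stays at -2.23 or below throughout, outside the grey bars, and the open circles mark the 2 fits in which its adjusted p was not below 0.05.

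The other 48 large subunit genes stayed close to their WT level. None was called by edgeR, and 7 of the 48 had an unadjusted p below 0.05 (3 higher, 4 lower), or 14.6% against 19.6% of all tested genes. Their log2 fold changes ran from -0.33 in Mrpl20 to 0.28 in Mrpl2, 24 of them negative and 24 positive. The median over all 49 was -0.01, where the median over all tested genes was -0.00077. The 95% intervals of these 48 genes reached no lower than -0.56 (Mrpl54) and no higher than 0.54 (Mrpl2), so a fall of the size seen in Mrpl15 lay outside the interval of each. DESeq2 called 4 large subunit genes, which were Mrpl15, Mrpl20, Mrpl11 and Mrpl30, and 8.87% of the genes to which it gave an adjusted p.

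Mrpl20, homologous to a bacterial protein that binds ribosomal RNA early in assembly, had the lowest fold change after Mrpl15. It stood at 31.6, 32.2 and 30.1 CPM in WT and 24.4, 25.5 and 24.7 CPM in KO, with no overlap between the groups. Its log2 fold change was -0.33 ± 0.07 (95% interval -0.49 to -0.17), which edgeR did not call (adjusted p = 0.0835), whereas DESeq2 (adjusted p = 3.81e-04) and limma on log2(TPM + 1) (adjusted p = 0.0466), which called 1.71% of its genes, did. Mrpl11, which with Mrpl10 and Mrpl12 forms the stalk where translation factors bind, was at 37.3, 39.2 and 35.9 CPM in WT and 32.0, 31.0 and 30.5 CPM in KO. Its groups did not overlap either, at -0.27 ± 0.07 (edgeR adjusted p = 0.122, DESeq2 adjusted p = 0.0130). The other stalk genes lay at 0.11 ± 0.08 (Mrpl10) and 0.00 ± 0.06 (Mrpl12, also known to bind the mitochondrial RNA polymerase), with adjusted p of 0.465 and 0.974 by edgeR.

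Genes for the central protuberance, the crown of the large subunit that contacts the small one and the tRNAs, had mostly negative fold changes. Of 8 such genes, 7 were negative, where 7939 of all 15848 tested genes were. None of the 8 was called by edgeR, which called 1.0% of all tested genes. DESeq2 also called 0, against 8.87% of the genes to which it gave an adjusted p. In edgeR 1 of the 8 (12.5%) had an unadjusted p below 0.05, against 19.6% of all tested genes. The median of the 8 was -0.10, and they ran from -0.24 ± 0.09 in Mrpl48 to 0.17 ± 0.07 in Mrpl38. Mrpl48 was at 24.4, 26.1 and 22.5 CPM in WT and 21.1, 20.9 and 19.7 CPM in KO, and Mrpl38 at 30.4, 27.0 and 28.6 against 32.2, 32.7 and 32.0 CPM. Neither gene had overlapping groups, and they differed in opposite directions. Of 6 genes for the tunnel through which the new chain leaves, 5 were positive, where 7909 of all 15848 tested genes were. The 6 had a median of 0.05, with 0 called by edgeR and none at an unadjusted p below 0.05. These role groups were formed from textbook knowledge after the values were known.

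At the upper end of the large subunit, Mrpl2, which lies next to the site of peptide bond formation, stood at 20.8, 16.2 and 18.1 CPM in WT and 22.8, 21.9 and 22.4 CPM in KO. The WT brains spread widely here, and the log2 fold change of 0.28 ± 0.11 was not called by edgeR (adjusted p = 0.227). Mrpl30 was at 29.9, 32.8 and 31.4 CPM in WT and 39.5, 36.6 and 36.0 CPM in KO. Its groups lay apart, with 0.25 ± 0.07 (edgeR adjusted p = 0.148, DESeq2 adjusted p = 0.0485). Mrpl14, Mrpl42 and Mrpl13 had 0.21 ± 0.09, 0.21 ± 0.08 and 0.20 ± 0.13, and Mrpl54 on the lower side had -0.23 ± 0.14, none called by edgeR. Mrpl13 spread widely among the WT brains, where it was at 29.1, 21.0 and 24.8 CPM, and its groups overlapped.

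**Figure D3:**
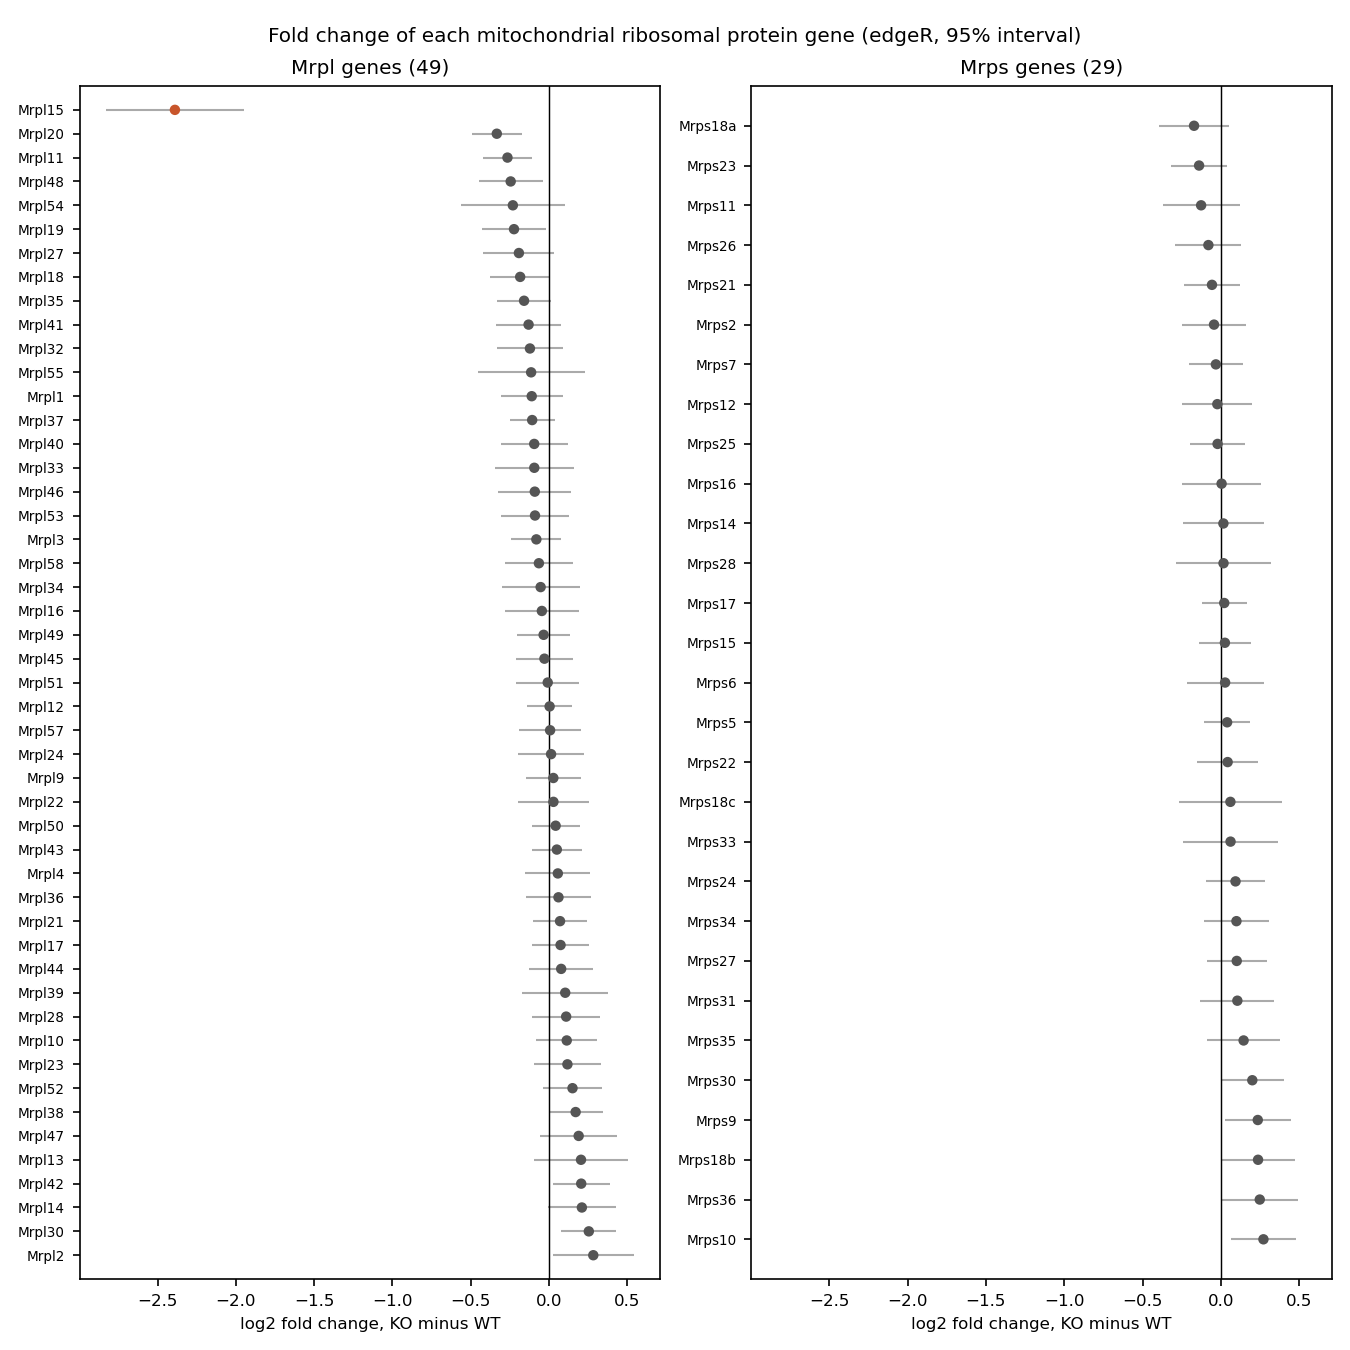
Log2 fold change (KO minus WT, horizontal axis) of each of the 49 Mrpl and 29 Mrps genes, with its 95% interval from edgeR, ordered by value. The 1 coloured point is Mrpl15 at -2.39, the only call, and the other 77 points lie between -0.33 and 0.28.

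No small subunit gene was called by edgeR, DESeq2, limma-voom or limma on log2 TPM. With 1.0% of all tested genes called by edgeR, 1.71% by limma on log2(TPM + 1) and 8.87% by DESeq2, a count of 0 among 29 is near the background for edgeR and limma. Of the 29, 3 had an unadjusted p below 0.05 in edgeR, all higher in KO (10.3%, against 19.6% of all tested genes). Fold changes ran from -0.17 in Mrps18a to 0.27 in Mrps10, with 9 negative and 20 positive and a median of 0.03. The widest intervals reached -0.40 (Mrps18a) and 0.50 (Mrps36). The medians of both subunits moved with the scaling. With libraries scaled by their totals alone they were 0.06 for the large and 0.09 for the small subunit, and the median of all tested genes was 0.06.

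Mrps10, a protein of the small subunit head, was at 18.8, 16.7 and 16.4 CPM in WT and 21.3, 20.4 and 21.1 CPM in KO. All KO brains lay above all WT brains, at 0.27 ± 0.09 (edgeR adjusted p = 0.177). Mrps9, another head protein, was at 23.1, 19.9 and 22.1 CPM in WT and 25.1, 24.5 and 27.1 CPM in KO, at 0.24 ± 0.09 (edgeR adjusted p = 0.220). Of 7 head genes with Mrps symbols, 6 were positive, where 7909 of all 15848 tested genes were. The median of the 7 was 0.11. None was called by edgeR or DESeq2, which called 1.0% and 8.87% over all genes. Of the 7, 2 (28.6%) had an unadjusted p below 0.05 in edgeR, against 19.6% of all tested genes. Head proteins with other symbols were not counted, and this group too was formed after the values were known. Mrps12, which lines the decoding centre, was at 12.8, 14.4 and 13.6 CPM in WT and 13.0, 13.0 and 14.1 CPM in KO. The groups overlapped, and its fold change was -0.02 ± 0.09. Mrps5, Mrps2 and Mrps24 had 0.04 ± 0.06, -0.04 ± 0.08 and 0.09 ± 0.08.

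The family holds 3 relatives of bacterial S18, each with its own place in the particle. Mrps18a, which despite its name sits in the large subunit, was at 20.9, 21.0 and 19.0 CPM in WT and 17.4, 19.7 and 17.0 CPM in KO. Mrps18b was at 9.24, 8.71 and 8.87 CPM in WT and 9.97, 10.8 and 10.9 CPM in KO, and Mrps18c at 12.1, 9.34 and 9.78 against 11.6, 10.1 and 10.8 CPM. The KO brains were all higher for Mrps18b alone of the 3, and the fold changes of -0.17 ± 0.09, 0.24 ± 0.10 and 0.06 ± 0.14 were not called by edgeR (adjusted p = 0.357, 0.257 and 0.828). Mrps30, another protein of the large subunit with a small subunit name, had 0.20 ± 0.08 (edgeR adjusted p = 0.257). Mrps36, now known as a part of the 2-oxoglutarate dehydrogenase complex and not of the ribosome, was at 7.20, 7.10 and 7.05 CPM in WT and 8.67, 8.37 and 8.33 CPM in KO. The brains of each group agreed closely, and the fold change of 0.25 ± 0.10 was not called by edgeR (adjusted p = 0.251).

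The groups did not overlap in 28 of the 78 genes (35.9%, 14 higher and 14 lower), against 27.6% of all tested genes. In the large subunit this was 21 of 49 and in the small subunit 7 of 29. Brains also differed within a group. Of the 78 genes, 59 had their highest WT value in WT 1, 13 in WT 2 and 6 in WT 3, and the median deviation from the WT mean on the log2 scale was 0.08, -0.05 and -0.04 for the large subunit in the WT brains and 0.07, -0.03 and -0.05 for the small one. The median SD within groups over the 78 genes was 0.07 on the log2 scale.

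Per transcript length, the genes differed far more from each other than between genotypes. Over the 6 brains the highest large subunit genes were Mrpl52, Mrpl42 and Mrpl30, with mean TPM of 282.9, 177.9 and 162.2, and the lowest were Mrpl48 and Mrpl17 at 13.7 and 10.8 TPM, together with Mrpl15, whose mean was 22.9 TPM in WT and 4.16 TPM in KO. Among small subunit genes Mrps21, Mrps5 and Mrps17 led with 186.0, 106.2 and 99.8 TPM, and Mrps31, Mrps14 and Mrps25 were lowest with 27.5, 18.8 and 9.57 TPM. Summed TPM of the large subunit was 3363 ± 165.4 in WT and 3368 ± 44.7 in KO (SD, n = 3), and of the small subunit 1743 ± 73.7 and 1762 ± 17.2. The ratio of the sums was between 1.91 and 1.94 in WT and between 1.90 and 1.92 in KO, and these ranges overlap.

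**Figure D4:**
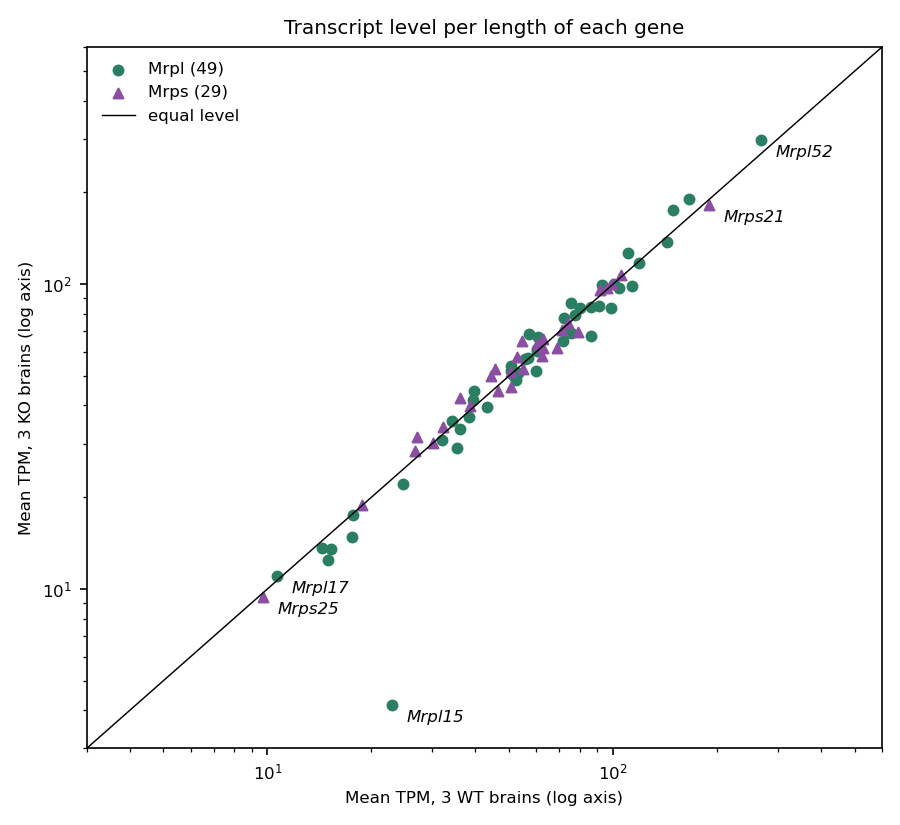
Mean TPM in 3 KO brains (vertical, log axis) against mean TPM in 3 WT brains (horizontal, log axis) for the 49 Mrpl genes (circles) and 29 Mrps genes (triangles), with the line of equal level. The points follow the line up to Mrpl52, at 268.3 TPM in WT and 297.5 in KO, and Mrpl15 alone lies far below it, at 22.9 TPM in WT and 4.16 in KO.

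The rest of the mitochondrial translation apparatus held no edgeR call among 62 tested genes, of which 5 had an unadjusted p below 0.05. Over all tested genes edgeR called 1.0% and 19.6% had such a p, so 0 calls among 62 is near the background. DESeq2 called 8.87% of the genes to which it gave an adjusted p. Of 5 mitochondrial ribosomal proteins with other symbols, 0 were called by edgeR or DESeq2 and 0 had such a p; Aurkaip1 had 0.22 ± 0.10 and Dap3 -0.10 ± 0.06. Among 27 genes of ribosome assembly and rRNA modification, 0 were called by edgeR, 1 had such a p, and DESeq2 called 1. That gene was Rbfa, a small subunit assembly factor, with 0.48 ± 0.11 (edgeR adjusted p = 0.105, DESeq2 adjusted p = 0.00275), followed by the GTPase Gtpbp10 with 0.35 ± 0.15. The median of this list was 0.02. Among 15 translation factors and partners, 0 were called by edgeR, 3 had such a p, and DESeq2 called 1, Oxa1l, the insertase that receives the new chains, with 0.21 ± 0.05 (edgeR adjusted p = 0.129, DESeq2 adjusted p = 0.00790). Guf1, a translational GTPase, had -0.24 ± 0.07 (edgeR adjusted p = 0.148). Among 15 genes of mitochondrial DNA expression, 0 were called by edgeR or DESeq2 and 1 had such a p, the RNA polymerase gene Polrmt with -0.21 ± 0.07, and Tfb2m had -0.22 ± 0.12. The medians of the last pair of lists were -0.01 and 0.03.

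None of the 8 genes with TGACGT was called by edgeR, where 1.0% of all tested genes were. Mrpl15, the only member called by edgeR, has no promoter entry. The count of edgeR calls was therefore fixed at 0 for each motif and says nothing about the letters. Their fold changes ran from -0.14 in Mrps23 to 0.28 in Mrpl2, with a median of 0.05, against 0.01 in the other genes with a promoter entry. Mrps10 and Mrpl2, the highest of their subunits, were both holders, neither called by edgeR (adjusted p = 0.177 and 0.227), and other holders had negative fold changes. The holders of the YY1, NRF1 and ETS letters had medians of -0.03, 0.03 and -0.04.

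Several genes of the mitochondrial ribosome share their locus with another gene. By GENCODE M21, exons of 33 of the 78 genes overlap exons of another gene, and for 23 of them that gene codes for a protein. Reads from an opposite strand gene can be told apart only where counting used strand, which the sources used here do not give. Mrpl46 and Mrps11, of the large and the small subunit, overlap each other on opposite strands. Mrpl46, of the central protuberance, lay between 11.6 and 11.7 CPM in WT and reached 11.6 CPM in KO. The groups overlapped for it and for Mrps11, with log2 fold changes of -0.09 ± 0.10 and -0.13 ± 0.10. Mrpl48, Mrpl13, Mrpl14, Mrpl18, Mrpl27, Mrps30 and Mrps34 are among those that overlap a protein-coding gene on the opposite strand. Mrps34, Mrps24, Mrps6 and Mrpl53 overlap a protein-coding gene on the same strand, where strand cannot tell the reads apart. Mrpl15, Mrpl20 and Mrpl11 overlap no protein-coding gene.

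Of the 8 genes on chromosome 17, which also carries E4f1, 2 lie within 5 Mb of it. Mrps34, at a distance of 0.44 Mb (24895120 to 24896289), was at 17.1, 15.98 and 15.7 CPM in WT and 17.3, 18.4 and 16.6 CPM in KO. Mrpl28, 1.67 Mb away (26123503 to 26126613), was at 34.8, 30.04 and 29.1 against 34.4, 32.3 and 34.7 CPM. Both had overlapping groups and fold changes of 0.10 ± 0.09 and 0.11 ± 0.09, with edgeR adjusted p of 0.547 and 0.526.

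The tissue of the libraries matched its label, with all 6 neuronal and all 6 radial glia markers at more than 30 TPM in every brain. Of 6 markers of other tissues, Alb and Afp (liver) and Ins2 (pancreas) were at or below 0.60 TPM, while Krt5 (skin) reached 63.25 TPM in WT 3 and 14.6 in KO 2, and the muscle gene Acta1 16.84 TPM in KO 3 and 10.2 in KO 2. The sum over this list was between 3.1 and 65.89 TPM in WT and between 8.84 and 28.07 in KO. Summed over each marker list, neurons gave between 5200 and 6019 TPM in WT and between 3896 and 4517 in KO. Of the 6 neuronal markers, 5 had negative and 1 positive fold changes. Groups did not overlap for 4 (66.7%, against 27.6% of all tested genes), all lower in KO. Tubb3 made a large part of each sum. Neurod6 overlapped, at 277.8, 377 and 584.9 TPM in WT and 477.6, 281.4 and 614.5 in KO. Microglia gave between 60.2 and 100.6 TPM in WT and between 113.5 and 151.8 in KO. Radial glia gave between 2378 and 2805 TPM in WT and between 2085 and 2234 in KO. Of these 6 markers, 3 had negative and 3 positive fold changes. Groups did not overlap for 1 of them (16.7%, against 27.6% of all tested genes), Fabp7. Fabp7 made a large part of each sum, with 1328, 1510 and 1249 TPM in WT and 890.8, 977.3 and 842.5 in KO. Endothelium gave between 174.2 and 215.6 TPM in WT and between 232.8 and 321.7 in KO. The erythroid sum overlapped between the groups, at between 1978 and 5214 TPM in WT and between 4439 and 6261 in KO, with Hbb-y at 2346 TPM in WT 1 and at 173.5 TPM or less elsewhere. Of the 7 erythroid markers, 4 (57.1%) had groups that did not overlap, all higher in KO, against 27.6% of all tested genes. The meningeal and choroid plexus sums also overlapped. Kcnj13, 1 of 4 choroid plexus markers (25%, near the share of all tested genes), was lower in every KO brain. No defining marker of these lists was at 0 in all libraries. The part of these differences in the small fold changes above was not tested.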

How the data were processed

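Per the labels' protocols, RNA of dissected, frozen brains was extracted with Trizol and made into libraries with the KAPA Stranded mRNA-Seq Kit. Builds mm10 and GRCm38 and the tools RSEM (1.2.28), STAR (2.5.3a), Trimmomatic and FastQC come from the submitters' processing notes. How each was set, strand included, is not given in the sources used here. The authors deposited, per brain, expected counts (estimated read pairs per gene), TPM and FPKM, and the FPKM values deposited by the authors were not used. Of the 78 genes, 77 had whole expected counts (within 0.005) in every library, and Mrps6 did not. Over all genes, between 98.91% and 98.97% had whole counts in a library.

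Expected counts were rounded and fitted over the whole table with edgeR (version 4.0.16, R 4.3.3): filterByExpr, TMM, robust quasi-likelihood F test, two-sided, Benjamini-Hochberg adjustment. SE follows from the F statistic, and 95% intervals use it with edgeR's degrees of freedom. Alternatives used DESeq2 (1.42.0), limma (3.58.1; log2(TPM + 1) or log2(TPM + 0.1), at least 1 TPM in 3 libraries), other scalings and filters, a replicate block, a midbrain covariate and left-out libraries. The edgeR step was tested on simulated data. Pairs of libraries of a group differed by a chi-square per degree of freedom of at least 43.5, so each counted as its own sample. The members, lists, naming rule and alternatives were chosen with earlier results of these data known. The rule names E4f1, called members, in each subunit the 5 largest fold changes in each direction, the 5 smallest p and the 3 highest and lowest TPM, Mrpl12, Mrps12, Mrps36, the S18 relatives, members within 5 Mb of E4f1, and per list called genes and the 2 smallest p. Mrpl10, Mrpl16, Mrpl18, Mrpl27, Mrpl38, Mrpl46, Mrps2 and Mrps24 fall outside it and were named after their values were seen. Mrpl4, Mrpl19, Mrps28 and Mrps35 also fall outside the rule and are named for a missing promoter entry. The same holds for Mrps6, named for its counts and exon overlap, and Mrpl53, named for its exon overlap. Coordinates come from RefSeq (GRCm38), where all 78 symbols matched.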

Additional observations from a re-analysis of the deposited data

How the results depend on the processing

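The main edgeR test called 159 genes in all, 81 higher and 78 lower, and scaling by totals 123 higher and 63 lower. DESeq2 called 1438, limma on log2(TPM + 1) 245 and on log2(TPM + 0.1) 248, the 4 brains with close animal numbers 0 and the midbrain covariate 0 (1546 and 750 at an unadjusted p below 0.05), and the fits without 1 library between 36 and 82 (63, 82 and 52 without WT 1, WT 2 or WT 3, and 36, 71 and 69 without KO 1, KO 2 or KO 3). In the large subunit these called 4, 2, 2, 0 and 0 genes (3 and 1 at an unadjusted p below 0.05 in the last pair), against 1, and each fit without 1 library called 1. DESeq2 called 2 of the other genes of mitochondrial translation, against 0. Scaling by totals gave medians of 0.055 and 0.092 for the large and small subunit and the midbrain covariate 0.076 and 0.098, against -0.01 and 0.03. The cause was not tested. The small subunit count was 0 in all 19 alternatives. The replicate number as a block called 66 genes in all, with Mrpl15 at -2.41 ± 0.15 (edgeR adjusted p = 0.0208). Whether the numbers pair the samples cannot be decided from 3 brains per group. The correlation of same-numbered deviations was 0.12, 0.17 and 0.02, and that of differently numbered ones lay between -0.24 and 0.12. The block changed no call of a member. Counting error of a member in a single library was at most 0.0911 on the log2 scale. The median SE of the members' fold changes was 0.09, as large as many of the fold changes of uncalled members.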

Other observations

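Genes with a bacterial relative and genes found in mitochondria alone were also compared by their median log2 fold changes, with no test. In the large subunit the medians were 0.01 over 30 genes and -0.03 over 19, and in the small subunit 0.02 over 18 and 0.08 over 10, leaving out Mrps36. These groups were formed after the values were known.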
